A study of Homo sapiens with 18 samples.

Results

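The genes described here are 10 regulators of the passage from G1 into S phase: the D-type cyclins CCND1 and CCND3, the retinoblastoma gene RB1, the transcription factors E2F1 and E2F2, the E-type cyclins CCNE1 and CCNE2, the kinase CDK2 and the CDK inhibitors CDKN1B and CDKN2C. They were chosen by name, as the targets whose RefSeq identifiers match these symbols, and they are 10 of the 20802 genes that the expression panel lists. All 10 passed the filter on low counts. Their mRNA was measured in RKO cells, an established human colorectal carcinoma line, to learn how transcription responds when the ESCRT-I complex is lost. ESCRT-I is an endosomal sorting complex, and Tsg101 and Vps28 are core subunits of it. Cells received 30 nM of a single siRNA, either nontargeting (siCtrl#1 or siCtrl#2) or directed at Tsg101 (siTsg101#1 or siTsg101#2) or at Vps28 (siVps28#1 or siVps28#2), and were harvested 72 h later. There were 3 biological replicates of each siRNA, giving 18 libraries, and the labels give the replicate number as the batch. The model has limits of its own: a single cell line, transient transfection, and a single time point.

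The genes form a chain. D-type cyclins, made in response to growth signals, activate CDK4 and CDK6, which begin to phosphorylate the RB1 protein and release the E2F factors that it holds. E2F factors then raise transcription of E-type cyclins, of their own genes and of the enzymes of DNA replication, while cyclin E with CDK2 completes the phosphorylation of RB1. CDKN1B (p27) inhibits cyclin-CDK2 complexes, and CDKN2C (p18) inhibits CDK4 and CDK6. These steps act largely on proteins, which were not measured here.

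The sequences of 3 promoters are shown first because E2F1, E2F2 and CCNE1 are textbook E2F-responsive genes and their transcripts moved in different directions in these data. Each is the stretch of 250 bases before the RefSeq start of the gene (RefSeq, GRCh38.p14), read 5′ to 3′ on the strand of the gene, with capitals marking common forms of the E2F site on either strand. The forms searched were TTCGCGC, the variant TTGGCGC, the variant TTCCCGC and the variant TTGCCGC. E2F1 lies at chr20:33686386-33686635 on the minus strand, E2F2 at chr1:23531234-23531483 on the minus strand and CCNE1 at chr19:29811741-29811990 on the plus strand.
E2F1: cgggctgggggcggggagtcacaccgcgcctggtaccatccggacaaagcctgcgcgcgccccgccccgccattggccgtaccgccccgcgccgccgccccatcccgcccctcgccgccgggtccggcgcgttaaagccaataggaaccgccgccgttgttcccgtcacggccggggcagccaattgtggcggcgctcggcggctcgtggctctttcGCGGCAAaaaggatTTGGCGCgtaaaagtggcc
E2F2: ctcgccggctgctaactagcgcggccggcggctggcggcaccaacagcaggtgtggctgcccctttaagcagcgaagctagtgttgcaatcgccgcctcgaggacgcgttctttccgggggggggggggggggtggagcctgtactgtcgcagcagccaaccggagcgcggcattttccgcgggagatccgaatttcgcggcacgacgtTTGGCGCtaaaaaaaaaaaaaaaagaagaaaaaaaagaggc
CCNE1: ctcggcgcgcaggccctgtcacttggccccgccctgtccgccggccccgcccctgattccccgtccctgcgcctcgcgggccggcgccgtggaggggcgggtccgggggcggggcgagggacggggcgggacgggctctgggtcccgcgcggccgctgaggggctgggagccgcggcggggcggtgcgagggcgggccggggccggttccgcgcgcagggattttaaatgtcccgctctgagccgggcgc
The E2F1 stretch held 2 matches, TTGCCGC on the opposite strand 33 bases before the start and TTGGCGC on the same strand 19 bases before it. E2F2 held the letters TTGGCGC once, 41 bases before the start, and the CCNE1 stretch held none of the 4 forms. CDKN2C has several listed starts, and 1 of its windows, shown here because it carries TTCCCGC on both strands (131 and 34 bases before the start), lies at chr1:50968456-50968705 on the plus strand.
CDKN2C: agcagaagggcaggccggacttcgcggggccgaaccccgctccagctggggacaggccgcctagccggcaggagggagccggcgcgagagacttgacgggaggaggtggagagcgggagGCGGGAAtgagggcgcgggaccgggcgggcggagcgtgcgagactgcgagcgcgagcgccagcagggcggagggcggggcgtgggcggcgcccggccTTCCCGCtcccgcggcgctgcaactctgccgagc
Promoters of 7 of the 10 genes were listed, and 3 of these 7 genes (42.9%) held a match, against 3541 of 27305 genes with a listed promoter (13%) and 16 of 23 E2F target genes (69.6%). The listed windows of CCND3, CDKN1B and RB1 held no match. That of RB1 lay at chr13:48476200-48476449 on the plus strand (GRCh38.p14). No other RB1 start was listed, and whether this is its main start was not examined. No window of the 7 genes held TTTGAA, the letters of the CHR element of cell cycle genes, which stand in 13.3% of all 35116 windows. These are matches of letters and describe the windows only.

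The libraries held from 2561790 to 7466916 reads counted on genes (median 5022216.5), and 10212 protein-coding or unclassified genes with more than 100 counts over all libraries were tested. Amplified reads without molecular identifiers are not independent molecules, and every test here therefore rests on the spread between replicates. The knockdowns were seen in every library: TSG101 was at 2.49 to 4.99 normalized CPM (reads of the gene scaled to the library total) with its own siRNAs and at 74.5 to 167 in all other libraries, and VPS28 was at 3.48 to 7.78 with its own siRNAs and at 65.1 to 112 elsewhere. Among 8 epithelial markers, KRT18, KRT8, EPCAM and CDX2 were detected in every library, whereas KRT19, CDH1, CLDN4 and VIL1 stayed under 10 counts. Of 6 leukocyte markers only CD68, a lysosomal protein, passed 10 counts in any library (1674 to 9991), and PTPRC, CD3E and LYZ were at 0 in all. The summed level of this list, which is nearly all CD68, was 471 to 692 CPM with siCtrl#1, 785 to 986 with siCtrl#2 and 659 to 1677 in the on-target libraries. That of the epithelial list was 126 to 151 CPM in the control libraries and 92.7 to 140 in the on-target libraries. The part of these shifts in the results was not tested. Fibroblast and endothelial markers were at or near 0. Bulk RNA does not separate fewer cells in a cell cycle phase from less transcript per cell. The panel reads an amplicon of each transcript, so that levels are compared between libraries and never between genes.

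Upon ESCRT-I depletion, transcripts of CCND1, E2F1 and CDK2 fell and that of CCNE1 rose, while CDKN1B stayed within 0.04 of the siCtrl#1 level on the log2 scale with each siRNA. In the mean of the 4 on-target siRNAs relative to siCtrl#1, E2F1 had the log2 fold change -1.09 (SE 0.23, adjusted p = 0.0011, edgeR), CCND1 -0.85 (SE 0.13, adjusted p = 4.04e-05, edgeR), CDK2 -0.77 (SE 0.13, adjusted p = 1.70e-04, edgeR) and CCNE1 0.79 (SE 0.14, adjusted p = 2.68e-04, edgeR). A change is called here at 1.5-fold or more with a Benjamini-Hochberg adjusted p-value under 0.05 from edgeR's quasi-likelihood test. On that rule 4 of the 10 genes were called in this mean, where 15.1% of all tested genes were. The count was 3 down, where 6.54% of all genes were called down, and 1 up, where 8.56% were called up. The median of the 10 log2 fold changes was -0.40, and that of all tested genes was -0.004. By single siRNA, 6 of the 10 were called with siTsg101#1 (21.8% of all genes), 5 with siTsg101#2 (17% of all genes), 2 with siVps28#1 (8.68% of all genes) and 5 with siVps28#2 (13.3% of all genes). All these comparisons use the same siCtrl#1 libraries, so that likeness between them is no independent evidence. CCND1 and CDK2 were called down with all 4 siRNAs, which is 2 of 10 genes (20%) beside 1.54% of all tested genes, and none of the 10 was called up with all 4, beside 2.59% of all genes.

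**Figure D1:**
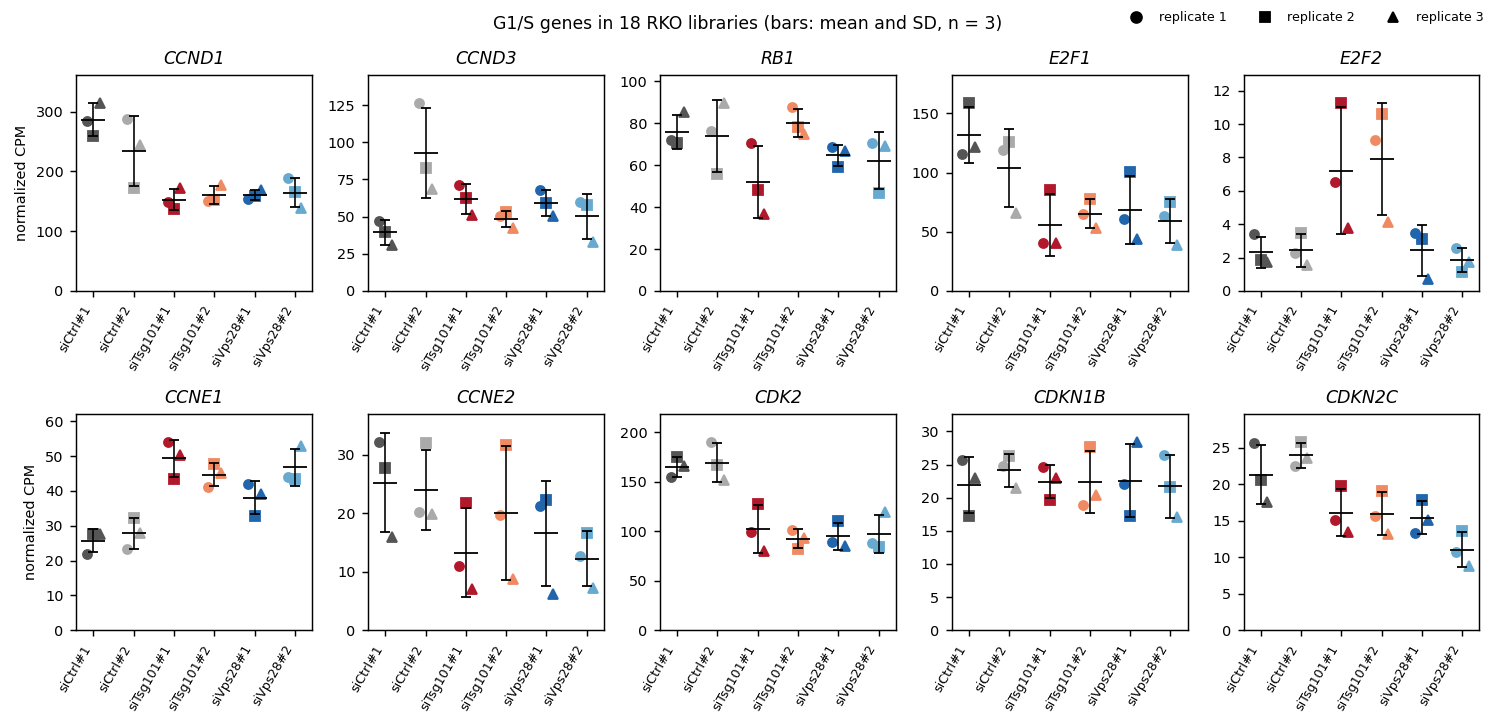
Normalized CPM (y axis, from 0) of the 10 genes in each of the 18 RKO libraries by siRNA (x axis), with symbols for the replicate and bars for the mean and SD of 3 replicates. CCND1 and CDK2 lie below every siCtrl#1 library in all 12 on-target libraries, CCNE1 lies above, and E2F2 is higher in the 6 siTsg101 libraries (3.77 or more) than in any other library (3.48 or less).

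**Figure D2:**
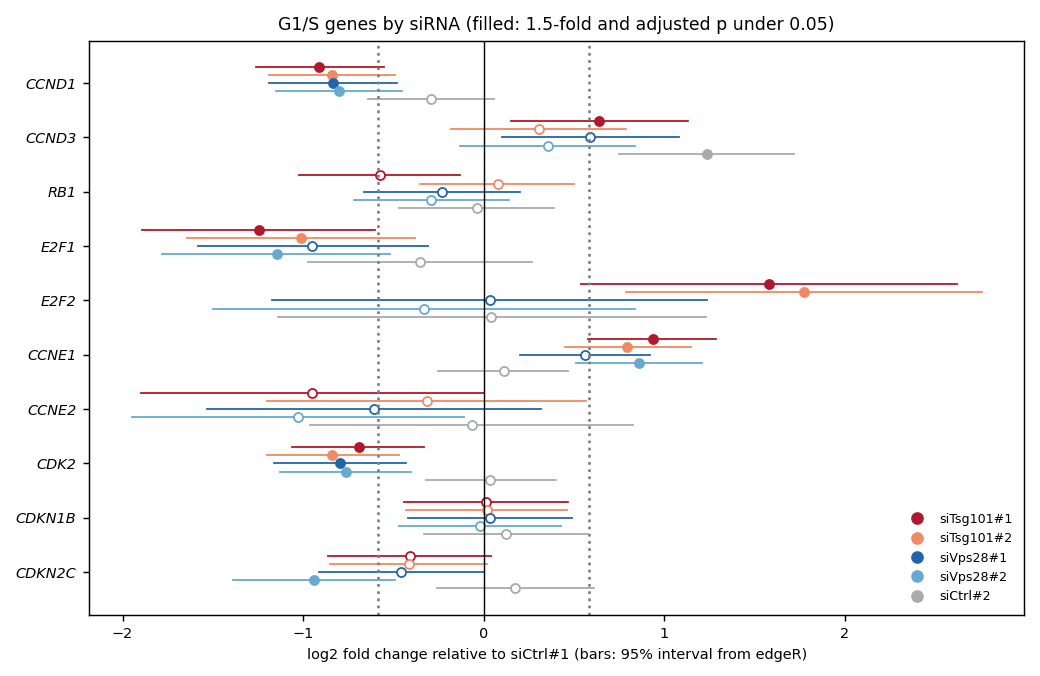
Log2 fold change (x axis) of each gene relative to siCtrl#1 for the 4 on-target siRNAs and for siCtrl#2, with 95% intervals from edgeR. Filled symbols mark changes of 1.5-fold or more (dotted lines) with an adjusted p-value under 0.05. CCND1 and CDK2 are filled for all 4 on-target siRNAs, and CCND3 has its highest value with the nontargeting siCtrl#2.

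CCND1 encodes cyclin D1 and lies on chromosome 11 (69455924 to 69469242, plus strand, GRCh37). Its level was 285, 260 and 315 CPM in replicates 1, 2 and 3 of siCtrl#1, and 287, 172 and 244 CPM in those of siCtrl#2. With siTsg101#1 it was 149, 137 and 172 CPM, and with siTsg101#2 it was 150, 152 and 178 CPM. With siVps28#1 it was 154, 159 and 169 CPM, and with siVps28#2 it was 189, 166 and 139 CPM. No on-target library reached the lowest siCtrl#1 library, but siCtrl#2 replicate 2 lay among the on-target libraries. Both siTsg101 siRNAs (-0.91 for #1 and -0.84 for #2) and both siVps28 siRNAs (-0.84 for #1 and -0.80 for #2) lowered it on the log2 scale (highest adjusted p = 0.0028, edgeR). Within each batch, CCND1 was lower in the on-target library than in the siCtrl#1 library in 12 of 12 differences, and also lower than in the siCtrl#2 library in 12 of 12. Such counts, here and for the genes below, reuse the same control library within a batch, so the differences are not independent. The same count over all tested genes is not given here. The size of the fall depended on the control: relative to siCtrl#2 the mean log2 fold change was -0.56, under 1.5-fold (adjusted p = 0.0045, edgeR). Exons of CCND1 share 497 bases with the antisense gene LTO1, and the strand setting of the counting is not given in the sources used here.

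CCND3 encodes cyclin D3, which activates the same kinases, and lies on chromosome 6 (41902672 to 42018095, minus strand, GRCh37). It was at 47.4, 40.0 and 31.0 CPM with siCtrl#1 but at 127, 83.0 and 68.6 CPM with siCtrl#2. Over the 12 on-target libraries it had a lowest level of 32.98 CPM and a highest of 71.2 CPM. The 4 on-target group means, from 48.6 to 61.6 CPM, lay between those of the nontargeting groups (39.4 ± 8.2 and 92.7 ± 30.2 CPM, SD, n = 3). The difference between the nontargeting siRNAs was a log2 fold change of 1.24 (SE 0.24, adjusted p = 0.0042, edgeR), and CCND3 was the only gene of the 10 called in that comparison, where 2.09% of all genes were called. Relative to siCtrl#1 the on-target values were 0.64 with siTsg101#1, which was called (adjusted p = 0.0496, edgeR), 0.31 with siTsg101#2, 0.59 with siVps28#1 and 0.36 with siVps28#2, which were not. The siTsg101#1 call lay at the threshold: it was lost when any 1 of 10 libraries was left out, namely replicate 1 or 2 of siTsg101#1, replicate 1 or 3 of siTsg101#2, any replicate of siVps28#1, replicate 2 or 3 of siCtrl#1 or replicate 2 of siCtrl#2 (0.48 to 0.65, highest adjusted p = 0.207, edgeR). It was also lost with noncoding genes of the panel included (0.64, adjusted p = 0.0519, edgeR). With the replicate as a block, siVps28#1 was called as well (0.60, adjusted p = 0.0154, edgeR), and 4 of the 10 genes were called with that siRNA, beside 10.5% of all tested genes. The mean of the 4 siRNAs was -0.76 when siCtrl#2 was the reference (adjusted p = 0.0034, edgeR). Within batches all 12 on-target libraries lay above siCtrl#1 and all 12 lay below siCtrl#2, so that the direction of CCND3 depended on the control. Its exons share 24 bases with an antisense gene.

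RB1 encodes the retinoblastoma protein, the repressor that cyclin D and cyclin E kinases inactivate, and lies on chromosome 13 (48877880 to 49173572, plus strand, GRCh37). Its level was 75.9 ± 8.1 CPM (SD, n = 3) with siCtrl#1 and 73.9 ± 17.2 with siCtrl#2. For siTsg101#1 it was 51.9 ± 17.3 and for siTsg101#2 80.2 ± 6.6, for siVps28#1 64.8 ± 5.0 and for siVps28#2 62.2 ± 13.4. The mean log2 fold change was -0.25 (95% interval -0.59 to 0.08, adjusted p = 0.28, edgeR), and no siRNA gave a called change. The lowest value, -0.58 with siTsg101#1, lay just under 1.5-fold (adjusted p = 0.0489, edgeR). RB1 was lower with siTsg101#1 than with siTsg101#2 by a log2 difference of -0.65 (adjusted p = 0.0585, edgeR), which was called with the replicate as a block (-0.66, adjusted p = 0.0252, edgeR), where 9.03% of all tested genes were called.

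E2F1, the activator released when RB1 is phosphorylated, lies on chromosome 20 (32263283 to 32274191, minus strand, GRCh37). It was at 115, 159 and 121 CPM in the siCtrl#1 replicates and at 119, 126 and 65.7 CPM in the siCtrl#2 replicates. With siTsg101#1 it was at 40.1, 85.5 and 40.8 CPM, and with siTsg101#2 at 65.1, 78.0 and 52.9 CPM. With siVps28#1 it was at 60.7, 100 and 43.7 CPM, and with siVps28#2 at 63.5, 75.5 and 39.1 CPM. All 12 on-target libraries lay below all siCtrl#1 libraries, while siCtrl#2 replicate 3 lay among them. Replicate 2 had the highest E2F1 level in all 6 groups, and within each batch the on-target library was lower than either control in 12 of 12 differences. The log2 fold change was -1.25 with siTsg101#1 (adjusted p = 0.0048, edgeR), -1.01 with siTsg101#2 (adjusted p = 0.0210, edgeR) and -1.15 with siVps28#2 (adjusted p = 0.0116, edgeR). With siVps28#1 it was -0.95, which was not called (adjusted p = 0.0524, edgeR) but was with the replicate as a block (-1.02, adjusted p = 5.89e-04, edgeR). Leaving out siCtrl#1 replicate 2 ended the calls of siTsg101#2 (-0.87, adjusted p = 0.0848, edgeR) and siVps28#2 (-0.997, adjusted p = 0.0592, edgeR). The call for siTsg101#2 was also lost without its own replicate 1 or 3, and that for siVps28#2 without its own replicate 3. The mean over the 4 siRNAs stayed called without any single library (-1.20 to -0.94, highest adjusted p = 0.0182, edgeR) and relative to siCtrl#2 (-0.74, adjusted p = 0.0303, edgeR).

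E2F2, a close relative of E2F1 with the same role, lies on chromosome 1 (23832930 to 23857725, minus strand, GRCh37) and was the member with the fewest reads. Its counts were 15, 6 and 10 with siCtrl#1 and 9, 14 and 8 with siCtrl#2. They were 16, 43 and 27 with siTsg101#1 and 58, 68 and 25 with siTsg101#2, but 12, 13 and 3 with siVps28#1 and 16, 7 and 10 with siVps28#2. In CPM, the 6 siTsg101 libraries lay between 3.77 and 11.3, above all 6 siVps28 libraries (0.687 to 3.48) and all 6 control libraries (1.54 to 3.47). The log2 fold change was 1.58 with siTsg101#1 (adjusted p = 0.0228, edgeR) and 1.77 with siTsg101#2 (adjusted p = 0.0104, edgeR). It was 0.04 with siVps28#1 (95% interval -1.17 to 1.24) and -0.33 with siVps28#2 (95% interval -1.50 to 0.84). The difference between Tsg101 and Vps28 depletion was tested directly and was a log2 difference of 1.82 (SE 0.35, adjusted p = 8.17e-04, edgeR), or 3.54-fold. It uses no control library, and stayed between 1.55 and 2.02 with any single library left out (highest adjusted p = 0.0052, edgeR). The calls against siCtrl#1 were less firm: that of siTsg101#1 was lost without its own replicate 2 (1.05, adjusted p = 0.171, edgeR), without siCtrl#1 replicate 2 (1.47, adjusted p = 0.0671, edgeR) or without siCtrl#1 replicate 3 (1.35, adjusted p = 0.0995, edgeR). That of siTsg101#2 was lost without its own replicate 2 (1.499, adjusted p = 0.0544, edgeR) or siCtrl#1 replicate 3 (1.54, adjusted p = 0.0616, edgeR). Of the 50-base stretches of E2F2 transcripts, 0.443% also occur in another gene, with RRM2 as the largest partner. E2F1 and E2F2 thus moved in opposite directions with the siTsg101 siRNAs, and both of their promoter stretches shown above hold the letters TTGGCGC.

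CCNE1 encodes cyclin E1, the partner of CDK2 at the G1/S boundary, and lies on chromosome 19 (30302898 to 30315219, plus strand, GRCh37). It was at 21.98, 27.7 and 27.5 CPM with siCtrl#1 and at 23.2, 32.2 and 28.0 CPM with siCtrl#2. With siTsg101#1 it was at 54.0, 43.6 and 50.4 CPM, and with siTsg101#2 at 41.2, 47.8 and 45.1 CPM. With siVps28#1 it was at 42.1, 32.9 and 39.2 CPM, and with siVps28#2 at 44.02, 43.5 and 52.8 CPM. Every on-target library lay above every control library of either kind, although siVps28#1 replicate 2 and siCtrl#2 replicate 2 were close. The log2 fold change was 0.94 with siTsg101#1 (adjusted p = 3.27e-04, edgeR), 0.80 with siTsg101#2 (adjusted p = 0.0018, edgeR) and 0.86 with siVps28#2 (adjusted p = 0.0011, edgeR). With siVps28#1 it was 0.56, which passed the p-value threshold but not 1.5-fold (adjusted p = 0.0415, edgeR). The mean rise was 0.68 relative to siCtrl#2 (adjusted p = 0.0016, edgeR), and all 12 within-batch differences were above 0 with either control.

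CCNE2 encodes cyclin E2, the other E-type cyclin, on chromosome 8. Its libraries differed more between batches than between most groups: replicate 3 was the lowest in all 6 groups. In CPM it was 32.2, 27.7 and 15.9 with siCtrl#1, 20.2, 31.9 and 19.9 with siCtrl#2, and between 6.18 and 31.8 in the on-target libraries. Each on-target group overlapped siCtrl#1. The siVps28#2 libraries (7.29 to 16.7 CPM) lay below all siCtrl#2 libraries, which the other on-target groups overlapped. The mean log2 fold change was -0.72 (SE 0.34, adjusted p = 0.13, edgeR), and no siRNA gave a called change in this fit, but other ways of fitting did call CCNE2. With the replicate as a block, the mean was -0.81 (adjusted p = 0.0025, edgeR), siTsg101#1 was -0.996 (adjusted p = 0.0050, edgeR) and siVps28#2 was -1.09 (adjusted p = 0.0029, edgeR), all of which were called. The same 3 values were also called with no filter on low counts, the mean at -0.72 (adjusted p = 0.000669, edgeR), siTsg101#1 at -0.95 (adjusted p = 0.00101, edgeR) and siVps28#2 at -1.02 (adjusted p = 0.000299, edgeR). These values barely differed from those of the reported fit, and only the p-values fell. The adjusted p of E2F1 with siVps28#1 fell likewise, from 0.0524 to 2.34e-05 (edgeR). In fits of only the groups compared, siTsg101#1 (-0.94, adjusted p = 0.0472, edgeR) and siVps28#2 (-1.04, adjusted p = 0.0327, edgeR) were called, and siTsg101#1 was called without its replicate 2 (-1.55, adjusted p = 0.0343, edgeR). Within batches 11 of 12 differences were below 0 with either control. CCNE1 and CCNE2 therefore did not move together, the former being called up and the latter having values below 0. Exons of CCNE2 share 1633 bases with antisense genes, among them INTS8.

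CDK2, the kinase that cyclin E activates, lies on chromosome 12 (56360565 to 56366573, plus strand, GRCh37). It was at 155, 175 and 166 CPM with siCtrl#1 and at 190, 167 and 152 CPM with siCtrl#2. With siTsg101#1 it was at 99.5, 128 and 79.6 CPM, and with siTsg101#2 at 101, 82.2 and 93.6 CPM. With siVps28#1 it was at 89.1, 110 and 85.4 CPM, and with siVps28#2 at 87.7, 84.6 and 120 CPM. The on-target and control libraries did not overlap, whichever control was taken. Its log2 fold change came to -0.69 and -0.84 for siTsg101#1 and #2, and to -0.80 and -0.76 for siVps28#1 and #2 (highest adjusted p = 0.0057, edgeR). The mean was -0.77 relative to siCtrl#1 and -0.81 relative to siCtrl#2 (adjusted p = 1.42e-04, edgeR), so that CDK2 depended least on the control among the 4 genes called in the mean. Only the call of siTsg101#1 depended on a single library, its own replicate 3, without which the value was -0.53 (adjusted p = 0.0555, edgeR). Exons of CDK2 share 654 bases with antisense genes, among them PMEL.

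The CDK inhibitors differed from each other. CDKN1B (p27; chromosome 12, 12838432 to 12875303, plus strand, GRCh37) was at 21.9 ± 4.3 CPM (SD, n = 3) with siCtrl#1 and between 21.7 ± 4.7 and 22.6 ± 5.6 CPM with the 4 on-target siRNAs. Its mean log2 fold change was 0.01 (95% interval -0.35 to 0.37), which leaves no room for a change of 1.5-fold in the mean. CDKN2C (p18; chromosome 1, 51426417 to 51440306, plus strand, GRCh37) was at 25.6, 20.6 and 17.6 CPM with siCtrl#1 and at 22.5, 25.8 and 23.5 CPM with siCtrl#2. It was at 15.1, 19.7 and 13.4 CPM with siTsg101#1, at 15.6, 19.0 and 13.1 CPM with siTsg101#2, at 13.4, 17.8 and 15.1 CPM with siVps28#1 and at 10.7, 13.6 and 8.85 CPM with siVps28#2. The siVps28#2 libraries had the lowest group mean and did not overlap siCtrl#1. Their replicate 2 (13.6 CPM) lay above the lowest library of each other on-target group. No on-target library reached siCtrl#2. The log2 fold change was -0.94 with siVps28#2 (SE 0.22, adjusted p = 0.0043, edgeR), and -0.41 with siTsg101#1, -0.41 with siTsg101#2 and -0.46 with siVps28#1, none of which was called. Averaged over the 4 siRNAs it was -0.55, under 1.5-fold (adjusted p = 0.0174, edgeR), and -0.73 relative to siCtrl#2, where it was called (adjusted p = 0.0031, edgeR). Within batches all 12 differences were below 0 with either control. Exons of CDKN2C share 617 bases with an antisense gene.

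The choice of nontargeting siRNA changed the size of several of these differences, and the direction of CCND3. Relative to siCtrl#2, 5 of the 10 genes were called in the mean of the 4 on-target siRNAs, beside 10.5% of all tested genes. CCNE1, E2F1 and CDK2 kept their call and direction, CCND3 and CDKN2C were called down, and CCND1 fell short of 1.5-fold.

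**Figure D3:**
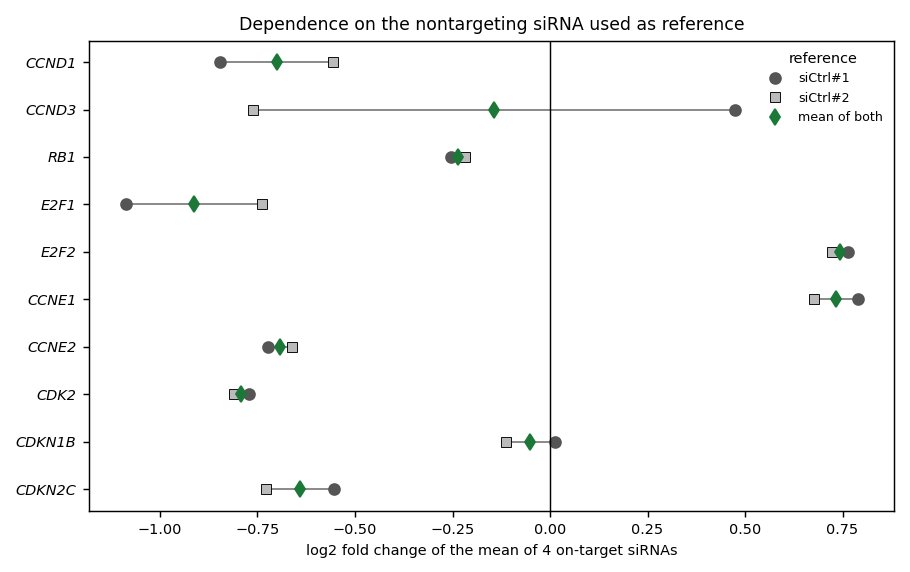
Log2 fold change (x axis) of each gene in the mean of the 4 on-target siRNAs, relative to siCtrl#1, to siCtrl#2 or to the mean of both. Only CCND3 and CDKN1B change sign, CCND3 from 0.47 to -0.76 and CDKN1B, which was called with neither control, from 0.01 to -0.11.

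When depletion of Tsg101 and depletion of Vps28 were compared directly, E2F2 was the only gene of the 10 called, where 6.23% of all genes were called. The log2 differences of the other 9 lay between -0.08 and 0.29, with 95% intervals of -0.31 to 0.19 for CCND1, -0.53 to 0.37 for E2F1, -0.09 to 0.40 for CCNE1 and -0.24 to 0.27 for CDK2. A difference of 1.5-fold lay outside the intervals of these genes. It lay inside those of CCNE2 (0.19, 95% interval -0.48 to 0.85) and CDKN2C (0.29, 95% interval -0.04 to 0.61), for which such a difference was not excluded. Between siTsg101#1 and siTsg101#2 edgeR called 0 of the 10 genes, where 6.99% of all genes were called, and DESeq2 called 1, RB1, which was also the 1 gene with an unadjusted p under 0.05 in edgeR. Between siVps28#1 and siVps28#2 both tools called 0, where edgeR called 0.48% of all genes, and CDKN2C was the 1 gene with an unadjusted p under 0.05 in edgeR, with a log2 difference of 0.48 (adjusted p = 0.59, edgeR).

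The rest of the G1/S machinery is given from a list of 25 other genes, of which 23 were tested. In the mean of the 4 on-target siRNAs, 2 of the 23 rose (8.7%, beside 8.56% of all tested genes) and 2 fell (8.7%, beside 6.54%), with a median log2 fold change of -0.045. Both shares were near those of all genes. The genes that fell were CCNA2 (-1.29, adjusted p = 1.65e-06, edgeR), which encodes cyclin A2, the partner of CDK2 in S phase, and SKP2 (-1.21, adjusted p = 2.86e-06, edgeR), the F-box protein that targets p27 for degradation. SKP2 was called down with each of the 4 siRNAs (-1.54, -1.34, -0.84 and -1.14) and relative to siCtrl#2 (-1.08, adjusted p = 2.04e-05, edgeR). The genes that rose relative to siCtrl#1 were CDKN1A (0.88, adjusted p = 9.40e-05, edgeR), which encodes the CDK inhibitor p21, and E2F5 (0.75, adjusted p = 0.0029, edgeR), which encodes a repressive E2F factor. Both were also higher with siCtrl#2, by 0.69 for CDKN1A (adjusted p = 0.0303, edgeR) and 0.77 for E2F5 (adjusted p = 0.0590, edgeR). Neither was called relative to siCtrl#2, at 0.19 for CDKN1A (adjusted p = 0.386, edgeR) and -0.02 for E2F5 (adjusted p = 0.959, edgeR). The cyclin D kinases CDK4 (0.07) and CDK6 (0.33) were not called, nor was the D-type cyclin CCND2 (0.47, adjusted p = 0.0365, edgeR), which stayed under 1.5-fold, nor MYC (-0.045). With siCtrl#2 as the control, 4 genes of the list were called up, where 6.13% of all tested genes were, namely CDK6 (0.77), CDKN1C (0.83), RBL2 (0.60) and TFDP2 (0.61).

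Genes that E2F factors are known to activate are the output of this pathway. Of 26 such genes, 22 fell in the mean of the 4 siRNAs (84.6%, beside 6.54% of all tested genes). In the same mean 0 rose, beside 8.56% of all tested genes, and the median log2 fold change was -1.02 (edgeR). The list was written with earlier results of these data known, so that its direction is not independent evidence. Among the licensing factors, ORC1 had the lowest value of the list (-1.64, adjusted p = 7.37e-05, edgeR), followed by CDC6 (-1.08) and CDT1 (-1.02). Of the helicase subunits, MCM3, MCM4, MCM5, MCM6 and MCM7 fell (-1.31 to -0.88), whereas MCM2 was at -0.59 (adjusted p = 0.0602, edgeR). For nucleotide supply, TK1 (-1.21) and TYMS (-1.17) fell, and the ribonucleotide reductase genes RRM1 (-0.12) and RRM2 (-0.47) were not called. EZH2 was the only gene of the list above 0 (0.06, adjusted p = 0.82, edgeR). With each siRNA separately, 15 of the 26 were called down with all 4 (57.7%, beside 1.54% of all tested genes). Against siCtrl#2, 18 of the 26 fell, beside 4.37% of all tested genes, and the median was -0.69. Among the genes named above, RRM2 was called down there (-0.77, adjusted p = 0.0062, edgeR), whereas CDT1 (-0.535) and MCM6 (-0.508) stayed under 1.5-fold. Relative to siCtrl#1, 11 of 18 genes of G2 and mitosis fell (61.1%, beside 6.54% of all tested genes) and 0 rose (beside 8.56%). Their median was -0.66 (edgeR). At an unadjusted p under 0.05 0 genes of either list were higher.

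**Figure D4:**
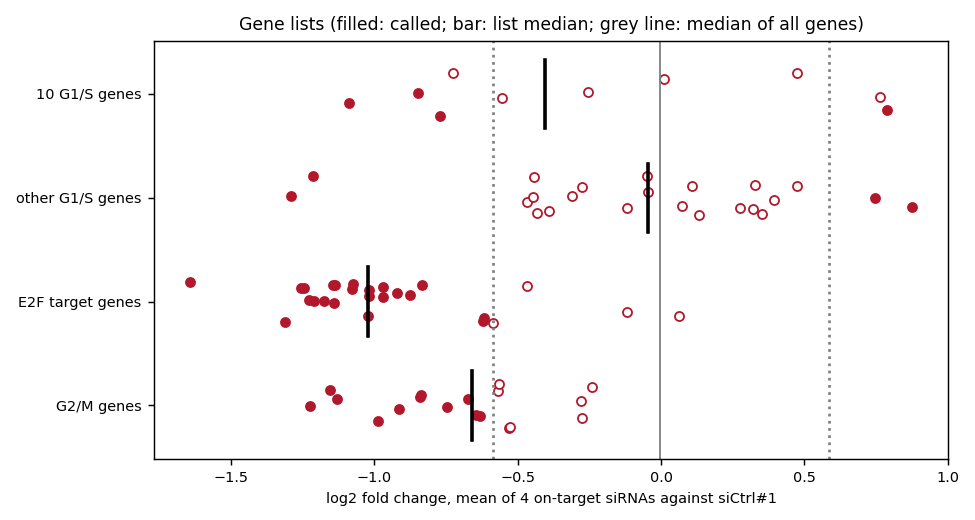
Log2 fold change in the mean of the 4 on-target siRNAs relative to siCtrl#1 (x axis) for the 10 genes and the 3 lists (rows; vertical scatter only separates points). Filled points were called, black bars are list medians (-0.40, -0.045, -1.02 and -0.66) and the grey line is the median of all tested genes (-0.004). The E2F target genes lie mostly left of the line of a 1.5-fold fall, whereas the 10 genes and the other G1/S genes lie on both sides of 0.

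For the 4 genes called in the mean, the tested genes with the most similar levels over the 6 groups were found by the root mean square difference of the centred group means of log2 CPM. For CCND1 these were EXO5 (0.029), ICMT (0.069) and TUBGCP3 (0.069), and for CCNE1 they were ZNF616 (0.039), BACH1 (0.051) and PELI1 (0.060). For E2F1 they included PCNA (0.068), the DNA polymerase clamp, and HAUS5 (0.070), a subunit of the augmin complex of the spindle. For CDK2 they were ZNF253 (0.060), DNAJC9 (0.078) and KNTC1 (0.080), a protein of the mitotic checkpoint. These genes were picked for their likeness out of all tested genes, so that the likeness is a description of 6 group means.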

How the data were processed

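The 18 libraries were prepared by the authors with an amplicon panel of the human transcriptome (Ion AmpliSeq), sequenced on an Ion Proton instrument, aligned to the panel's hg19 reference using the Torrent aligner TMAP, and counted with HTSeq 0.6.0. The deposited counts are whole reads per transcript target, with no normalization, filter or pooling. Groups and replicates were taken from the labels. Of the 20802 genes listed, 20228 were matched to a symbol. Genes with more than 100 counts over all libraries were kept (10632) and 420 of a noncoding type were left out, after the study's methods.

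Counts were normalized by TMM and tested with edgeR 4.0.16 (quasi-likelihood, Benjamini-Hochberg adjustment over 10212 genes) under R 4.3.3, with all 18 libraries and 6 groups in one model. CPM values use the TMM-scaled library sizes. The script was tested on simulated data. P-values measure the spread between the replicates, which the study describes as independent experiments. Because the labels call the replicate number a batch, a model with the replicate as a block was also fitted. Deviations from group means correlated by 0.145 on average over 45 pairs of libraries with the same number and by -0.073 over 90 other pairs.

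The alternatives were the replicate block, DESeq2 1.42.0, RLE size factors, a minimum of 10 counts in each library or none at all, noncoding genes kept, a reference of siCtrl#2 or of both nontargeting groups averaged, a fit restricted to the groups compared, no fold threshold, and the omission of each library in turn. The genes and lists were chosen with earlier results of these data known. The text names the 10 genes, genes of the lists, TSG101 and VPS28 and, for each gene called in the mean, the 3 tested genes nearest to it in pattern. Gene positions and overlaps are from GRCh37 and promoter sequences from RefSeq (GRCh38.p14), and no coordinates were converted. Protein sequences were not used here. Values of a few single genes that these rules would name are not reported here.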

Additional observations from a re-analysis of the deposited data

Results flagged for a closer look

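E2F2 stood out because Tsg101 and Vps28 depletion differed in a direct test, by 1.82 on the log2 scale (adjusted p = 8.17e-04, edgeR). It was higher in each of the 6 siTsg101 libraries than in any of the 6 siVps28 libraries.

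CCNA2 stood out because siRNAs to the same target differed. It was lower with siTsg101#1 than with siTsg101#2 by a log2 difference of -1.49 (adjusted p = 1.05e-04, edgeR), and higher with siVps28#1 than with siVps28#2 by 1.28 (adjusted p = 0.0044, edgeR). Its level was 101 ± 15.7 CPM (SD, n = 3) with siCtrl#1 and 84.1 ± 9.4 with siCtrl#2. It was 24.8 ± 7.4 with siTsg101#1 and 26.1 ± 6.0 with siVps28#2, but 69.7 ± 9.0 with siTsg101#2 and 63.5 ± 12.6 with siVps28#1. Relative to siCtrl#1 the change was -2.02 with siTsg101#1 and -1.95 with siVps28#2, beside -0.53 with siTsg101#2 (adjusted p = 0.0604, edgeR) and -0.67 with siVps28#1 (adjusted p = 0.0383, edgeR), so that no single siRNA lay near the mean of -1.29.

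CDKN2B, which encodes the CDK4 and CDK6 inhibitor p15, was higher with siTsg101#1 than with siTsg101#2 by 1.08 (adjusted p = 0.0497, edgeR), with 21.8 to 50.3 CPM against 11.2 to 21.4 CPM, and siCtrl#2 ranged from 12.4 to 45.2 CPM. FBXW7, the F-box protein that targets cyclin E, was higher with siTsg101#1 than with siTsg101#2 by 0.65 (SE 0.20), just within the threshold on the adjusted p-value of edgeR, with 29.6 to 36.8 CPM against 20.3 to 24.3 CPM.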

How the results depend on the processing

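Of 24 changes of the 10 genes called in the fit reported, 665 values were computed under the alternatives: 635 kept the call and direction, 29 kept the direction but lost the call, and 1 reversed. Most alternatives left out a single library, often from a group not compared, so that agreement was in part fixed beforehand. The reference mattered most: with siCtrl#2, 38 of 50 values of the 10 genes, called or not, were unchanged in call and direction. Relative to siCtrl#2, CCND3 reversed to -0.60 with siTsg101#1, -0.93 with siTsg101#2, -0.65 with siVps28#1, -0.88 with siVps28#2 and -0.76 in the mean; relative to the mean of both nontargeting siRNAs it reversed to -0.31 with siTsg101#2, -0.029 with siVps28#1, -0.26 with siVps28#2 and -0.14 in the mean. Relative to siCtrl#2, CCND1 was under 1.5-fold with siTsg101#2 (-0.55), siVps28#1 (-0.55) and siVps28#2 (-0.51), and E2F1 was not called with siTsg101#2 (-0.66) or siVps28#2 (-0.80). With siVps28#1 the calls among the 10 genes went from 2 to 1, while those among all tested genes went from 8.68% to 4.41%. The median of the E2F target genes went from -1.02 to -0.69. The other G1/S genes called up went from 2 to 4 (8.56% and 6.13% of all tested genes). Relative to the mean of both nontargeting siRNAs, 1 of them was called up. With the replicate block, pairing libraries by batch, 4 of the 10 genes were called with siVps28#1 (10.5% of all tested genes) and 1 between siTsg101#1 and siTsg101#2 in place of 0 (9.03% of all); beside the changes given with the results it changed no other call. DESeq2 and no low-count filter also called 1 gene, RB1, between siTsg101#1 and siTsg101#2. Requiring at least 10 counts in every library left 0 genes called between Tsg101 and Vps28 depletion, since that filter removes E2F2. Leaving out each library in turn gave 4 to 6 genes called with siTsg101#1, 4 to 5 with siTsg101#2, 2 to 4 with siVps28#1 (4 without its replicate 2, when CCNE1 and E2F1 were added), 4 to 5 with siVps28#2, 4 to 5 in the mean, and 0 to 1 between siTsg101#1 and siTsg101#2 (1 without siTsg101#1 replicate 1 or siCtrl#2 replicate 2). The share of all tested genes called in the fits without a library is not given here. A direction was read only from a value that was called or larger than its standard error. The cause of these shifts was not tested. Depth limits E2F2, with 3 to 68 counts per library.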

Other observations

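Among the 18 genes of G2 and mitosis, 11 fell in the mean of the 4 on-target siRNAs (61.1%, beside 6.54% of all tested genes). They included KIF20A (-1.22, adjusted p = 7.75e-04, edgeR), a kinesin of cytokinesis, and AURKA (-1.15, adjusted p = 3.19e-04, edgeR), the centrosomal Aurora kinase. CDC20 (-1.13, adjusted p = 1.91e-06, edgeR), an activator of the anaphase-promoting complex, was another. The mitotic cyclins CCNB1 (-0.75) and CCNB2 (-0.63) fell as well. Their kinase CDK1 (-0.53, adjusted p = 0.0294, edgeR) and the transcription factor FOXM1 (-0.53, adjusted p = 0.0046, edgeR) stayed under 1.5-fold, as did TOP2A (-0.57) and TTK (-0.57). Some of these last values depended on the control: relative to siCtrl#2, CDK1 (-0.59, adjusted p = 0.0208, edgeR) and TOP2A (-0.65, adjusted p = 0.0028, edgeR) were called down, and TTK was at 0.096 (adjusted p = 0.725, edgeR). FOXM1 stayed under 1.5-fold there too (-0.54, adjusted p = 0.0057, edgeR). Of the 18 genes, 13 were called down relative to siCtrl#2, beside 4.37% of all tested genes, with a median of -0.63. Relative to siCtrl#1, BUB1 (-0.28), CENPE (-0.24) and CDC25C (-0.28) did not pass the p-value threshold. With each siRNA separately, 3 of the 18 were called down with all 4 (16.7%, beside 1.54% of all tested genes).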
